A study of Mus musculus with 30 samples.

Results

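Genes of adult neurogenesis and of cell proliferation were examined in the hippocampus of male BALB/c mice fed methylmercury (MeHg), with and without added selenium. The 9 genes were Mki67, Top2a, Eomes, Igfbpl1, Dcx, Sox4, Sox11, Neurod1 and Calb2, taken from the 21412 genes of the deposited table by their symbol, with no threshold on a measured value. All 9 genes passed the filter on low values in every fit. Ctr mice received unspiked feed, LD mice a low dose of 0.28 mg and HD mice a high dose of 5 mg MeHg per kg feed. Se_Ctr, Se_LD and Se_HD mice were labelled as given selenium with no mercury, low dose mercury and high dose mercury. The series names the selenium as dietary selenium-methionine, and its amount, the mercury dose beside it and the housing of these mice are not given in the sources used here. The mice of the Ctr, LD and HD groups came at 2 to 3 weeks of age, were housed singly, and ate the diets for 11 weeks after 5 days of acclimatization. The RNA of 5 mice per group was sequenced, of the 6 per group that the study kept in the Ctr, LD and HD groups, and each of the 30 libraries came from whole hippocampus of 1 mouse.

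In the adult hippocampus new granule neurons are made in the subgranular zone of the dentate gyrus, where neural stem cells give rise to dividing intermediate progenitors, then to neuroblasts and immature neurons that settle in the granule layer. Mki67 and Top2a are transcribed in cells that are in the cell cycle, whatever their type. Eomes (Tbr2) marks intermediate progenitors, Igfbpl1 and Dcx mark neuroblasts and immature neurons, Sox4 and Sox11 are transcription factors that switch on neuronal genes in them, Neurod1 is a transcription factor needed for granule neurons, and Calb2 (calretinin) is made for a short time by young granule neurons as well as by mossy cells and some interneurons. In RNA from whole tissue, fewer cells of a type and less RNA per cell cannot be told apart.

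Over the 108 tests made for the 9 genes over 12 comparisons, 10 had an unadjusted p under 0.05, the threshold that the study used, and 0 had an adjusted p under 0.05 in limma, where the lowest was 0.271. The 10 fell on Calb2, Eomes, Mki67 and Sox11. By comparison, 2.86% to 9.09% of all genes passed the unadjusted threshold, and the comparisons share libraries. Dcx, the most used marker of newborn neurons, did not pass the threshold in any comparison, and its level lay within a 1.91-fold range over the 30 libraries. Eomes and Calb2 were higher in LD than in Ctr mice at the unadjusted threshold. Sox11 was lower in Se_HD than in HD mice with no overlap of the groups. Mki67 and Top2a were by far the highest in 1 HD mouse, without which their differences between HD and Ctr mice shrank to about a log2 value of 0.27 and 0.24.

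The reads counted on genes ranged from 5768208 to 11510521 per library, with a median of 9351471. The Ctr libraries were the shallowest group, with a median of 7119788 reads, against medians between 8185465 and 10159514 in the other 5 groups. The libraries of HD replicates 2 and 5 stood apart. HD replicate 2 held the highest value of the 30 libraries for 2443 of the 21412 genes (11.4%), and the summed level of 6 pan-neuronal genes was lowest in it, at 55919 normalized counts, and second lowest in HD replicate 5, at 62571. The 15 genes of a microglia list summed to 10962 in HD replicate 2 and to 9247 in HD replicate 5, to 4323 to 5960 in the other 3 HD libraries, and to 3352 to 3657 in the Ctr libraries. All 15 had an unadjusted p under 0.05 in the comparison of HD with Ctr mice, where 8.34% of all genes did, and 7 passed the adjusted threshold, which 0.13% of all genes passed, among them Tyrobp, C1qb and Cd68. The 7 became 3 without HD replicate 2, 1 without HD replicate 5 and 0 without both. Of all genes, 14, 4 and 3 passed the adjusted threshold in these settings. Values without these 2 libraries, an alternative chosen after seeing the data, stand beside some of the results that they move. The labelled tissue was checked with 11 marker genes of mature dentate granule neurons, which summed to between 3351 and 6553 in every library.

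The 9 genes were measured at very different depths. Per kilobase of annotated exon, the mean level over the 30 libraries was 119 ± 50.3 normalized counts (SD, n = 30) for Calb2 and 99.0 ± 17.4 for Neurod1. It was 18.5 ± 2.96 for Dcx, 12.9 ± 2.53 for Sox4 and 12.0 ± 5.69 for Sox11. The lowest levels were 5.78 ± 3.60 for Igfbpl1, 2.81 ± 3.08 for Mki67, 2.74 ± 2.35 for Eomes and 2.35 ± 3.55 for Top2a. In this order the neighbours Calb2 and Neurod1, Sox4 and Sox11, and the last 4 genes among each other differed by no more than the larger of the 2 genes' SDs, while Neurod1 stood above Dcx, Dcx above Sox4, and Sox11 above Igfbpl1, by more than that. By the smaller SD, Calb2 and Neurod1 and also Igfbpl1 and Eomes differed by more than 1 SD. The reads behind 1 value ranged from 145 to 492 for Dcx and Neurod1, but from 1 to 44 for Eomes, from 4 to 58 for Igfbpl1 and from 7 to 59 for Sox11, so that counting error alone is large for these 3 genes. It is also large for Top2a and Mki67 outside their high libraries. In Ctr mice Top2a had 4 to 16 reads and Mki67 14 to 30, against highest values of 229 and 230 in HD mice.

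**Figure D1:**
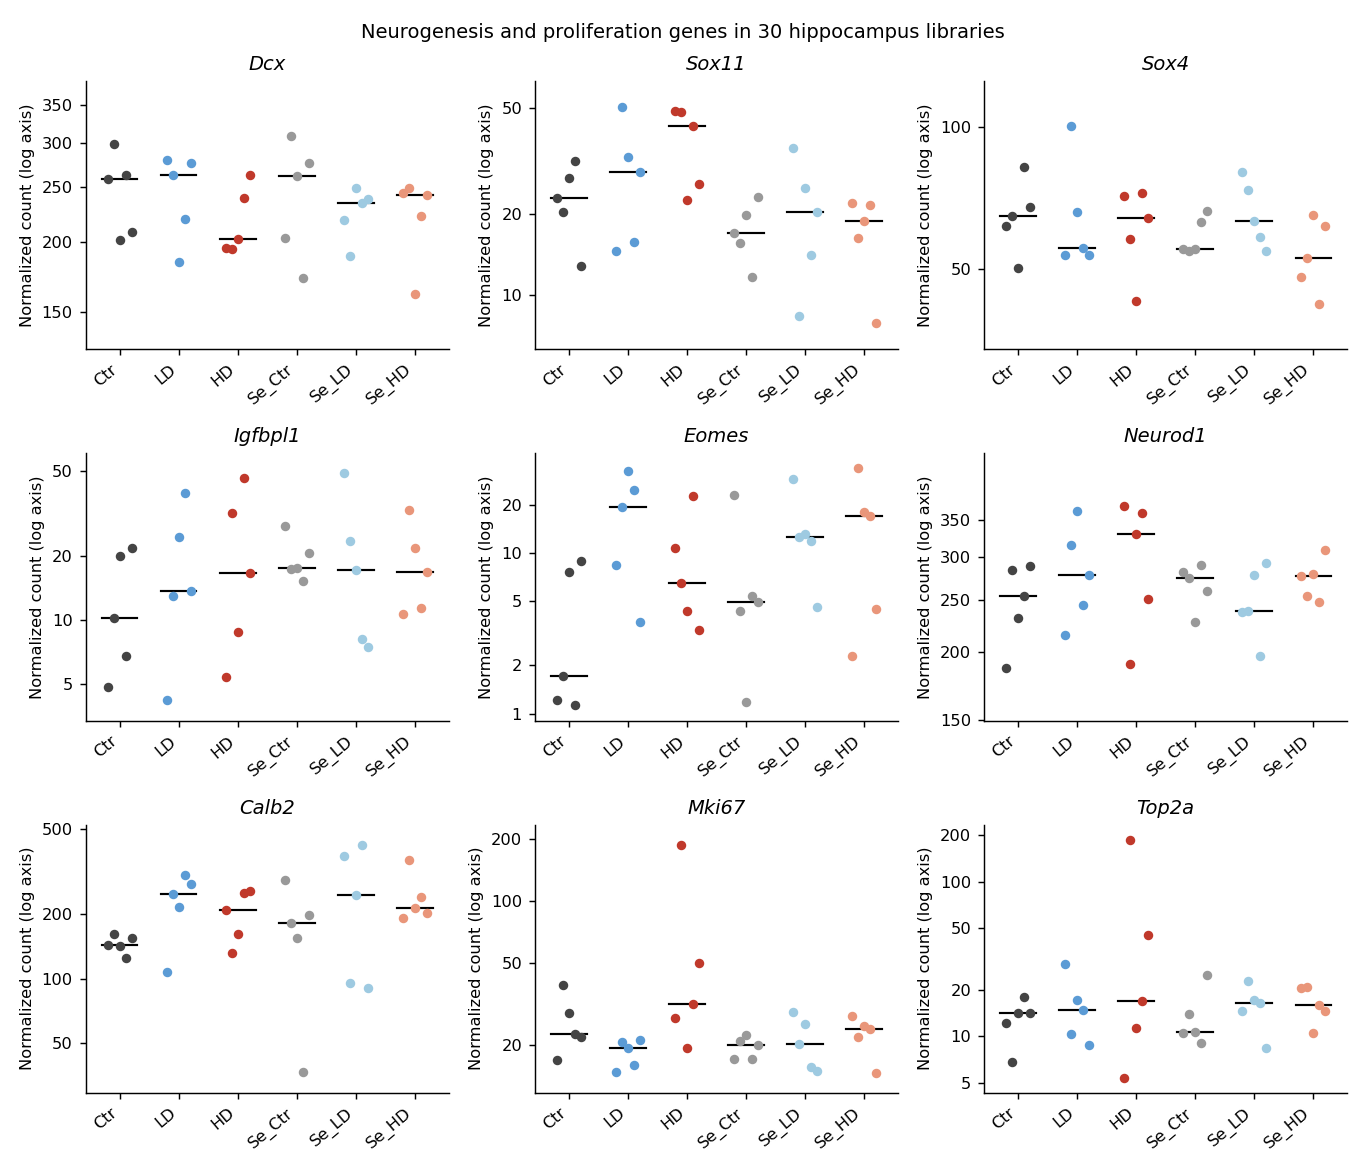
Normalized counts (log axes) of the 9 genes in each of the 30 libraries, with 5 points per group and a line at the group median. The groups overlap for most genes, and HD replicate 2 is the single high point at 188 for Mki67 and 187 for Top2a.

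Mki67 encodes a protein of dividing cells that coats mitotic chromosomes (ENSMUSG00000031004, NCBIM37 chr7:142881471-142908062, minus strand). Its normalized counts were 16.9, 39.1, 28.3, 22.5 and 21.7 in Ctr mice and 14.6, 20.6, 19.3, 15.8 and 21.2 in LD mice. In HD mice they were 26.9, 188, 19.2, 31.3 and 49.99. HD replicate 2 lay 3.75-fold above the next library, HD replicate 5, and 8.75-fold above the median of the 30 libraries, while the other 3 HD mice lay within the range of the Ctr mice. With selenium, the values were 17.1, 20.7, 22.3, 17.0 and 19.9 in Se_Ctr mice, 28.9, 20.1, 25.0, 15.5 and 14.8 in Se_LD mice, and 27.4, 21.8, 24.6, 23.9 and 14.6 in Se_HD mice. No selenium group held a library above 28.9.

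Top2a encodes the topoisomerase that untangles DNA before cell division (ENSMUSG00000020914, NCBIM37 chr11:98854257-98885503, minus strand), and the annotation places 2 small RNA genes within it. Its values in HD mice were 5.38, 187, 11.3, 16.9 and 44.99, so that the lowest and the highest of the 30 libraries were both HD mice. In Ctr mice they were 12.1, 6.81, 14.2, 18.0 and 14.1, and in LD mice 29.3, 10.3, 17.0, 14.8 and 8.71. HD replicates 2 and 5 were the highest of all, as for Mki67, and HD replicate 1 was the lowest. In the selenium groups Top2a ranged from 8.96 to 24.8 in Se_Ctr, from 8.33 to 22.6 in Se_LD and from 10.4 to 20.9 in Se_HD mice, which overlap with each other and with Ctr and LD.

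The comparison of HD with Ctr mice asked whether the high dose shifted these genes. Of the 9 genes, 0 had an unadjusted p under 0.05, against 8.34% of the 20031 genes tested. By the adjusted p 0 passed, against 0.13% of all genes, and 0 had groups without overlap, against 1.71%. By DESeq2, 4 of the 9 genes (Top2a, Mki67, Calb2 and Sox11) passed the unadjusted threshold, which 7.93% of all genes passed by that tool, and 0 the adjusted one. The log2 difference, on the scale of log2(normalized count + 1), was 0.79 for Mki67 (95% interval -0.08 to 1.66, limma p = 0.0732, exact permutation p = 0.222, adjusted p = 0.662) and 0.96 for Top2a (interval -0.32 to 2.23, p = 0.134, exact permutation p = 0.373, adjusted p = 0.746). They were 0.27 and 0.24 without HD replicate 2, and 0.03 for Mki67 and -0.27 for Top2a without HD replicates 2 and 5. With edgeR on the recovered reads, which called 8.66% of all genes, 3 of the 9 genes passed the unadjusted threshold, Top2a at a log2 difference of 2.01 (adjusted p = 0.269), Mki67 at 1.32 (adjusted p = 0.326) and Calb2 at 0.47 (adjusted p = 0.544).

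Against LD mice, 1 of the 9 genes passed the unadjusted threshold in HD mice, where 6.96% of all genes did, and 0 had groups without overlap, where 1.34% of all genes did. The adjusted threshold was passed by 0.0499% of all genes and by 0 of the 9. This was Mki67, which was 1.22 higher on the log2 scale (SE 0.42, p = 0.00846, exact two-sided permutation p = 0.0317), with 4 of 5 HD mice above every LD mouse. Its adjusted p was 0.452 in limma. On the recovered reads the difference was 1.80 with edgeR (adjusted p = 0.139) and 1.79 with DESeq2 (adjusted p = 0.0227), so that it passed the adjusted threshold with DESeq2 only. The difference was 0.70 without HD replicate 2, still past the unadjusted threshold, and 0.46 without HD replicates 2 and 5, no longer past it. Top2a differed by 0.74 in the same comparison (interval -0.54 to 2.01), by 0.02 without HD replicate 2, and by -0.48 without HD replicates 2 and 5. On the recovered reads it differed by 1.72 with both edgeR (adjusted p = 0.409) and DESeq2 (adjusted p = 0.471), past the unadjusted threshold, so that 2 of the 9 genes passed it in each tool, beside 7.76% and 7.03% of all genes.

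The library of HD replicate 2 was also the highest for other genes of the cell cycle. Of 30 further genes of G2 and M phase, 27 (90.0%) had their highest value of the 30 libraries in it, and of 22 genes of S phase 11 did, against 11.4% of all genes. Values of single genes, chosen after they were seen, show the size of this. Prc1, which bundles spindle microtubules, was at 87.3 normalized counts in HD replicate 2, and the next highest library was at 16.8. Bub1b, a kinase of the spindle checkpoint, was at 49.0 against 9.999, and Cdk1, the kinase that starts mitosis, at 47.3 against 10.8. HD replicate 5, the next library for Mki67 and Top2a, was the highest for 0 of these 30 genes of G2 and M phase and 0 of the 22 of S phase. Its summed level of the S phase genes, 1558, was nevertheless the second highest of the 30 libraries, after 2027 in HD replicate 2 and before 1512 in LD replicate 5. The summed level of the 30 genes was 1512 in HD replicate 2, 699 to 863 in the other HD mice and 678 to 827 in Ctr mice, so that these 4 HD mice overlapped with Ctr.

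By test over all mice, 3 of the 30 genes of G2 and M phase were higher in HD than in Ctr mice at an unadjusted p under 0.05 and 0 were lower, which is 10.0% of the list beside 8.34% of all genes, with a median log2 difference of 0.56, beside 0.01 over all genes. Those 3 were Birc5, which inhibits cell death and acts at the centromere (15.9 ± 11.4 against 7.30 ± 1.59 normalized counts, SD, n = 5, adjusted p = 0.507), Ccnb2, a mitotic cyclin (12.9 ± 6.08 against 5.91 ± 2.89, adjusted p = 0.527), and Ttk, a spindle checkpoint kinase (10.8 ± 3.59 against 5.86 ± 5.14, adjusted p = 0.537). With HD replicate 2 left out, 0 of the 30 passed, beside 6.37% of all genes, and the median was 0.17. Of the 22 genes of S phase, 2 (9.09%) passed upward, Tyms and Uhrf1. Without HD replicate 2, or without replicates 2 and 5, the count was 0 upward and 1 downward (4.55% of the list, beside 6.37% and 6.20% of all genes). The microglia list had 15 of 15 genes past the threshold upward without HD replicate 2, beside 6.37% of all genes. It had 11 of 15 without HD replicates 2 and 5, beside 6.20% of all genes. Of these 15 genes, 8 were highest in HD replicate 2 and the other 7 in HD replicate 5. The part of microglia RNA in the Mki67 and Top2a values was not tested.

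**Figure D2:**
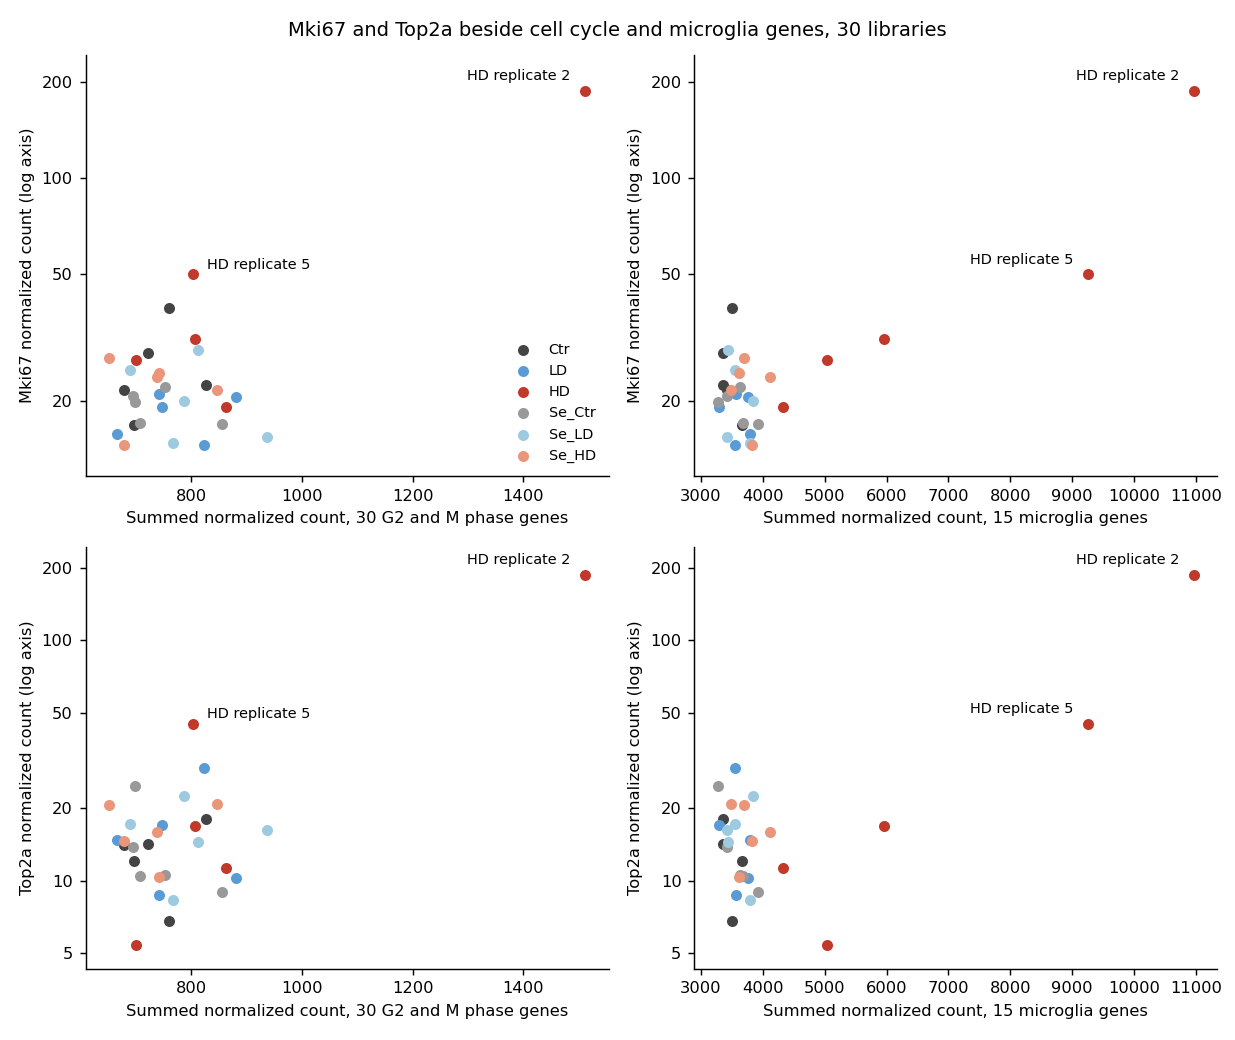
Normalized counts of Mki67 and Top2a (log axes) against the summed normalized counts of 30 other G2 and M phase genes (left) and 15 microglia genes (right), 1 point per library, coloured by group. HD replicate 2 is apart for Mki67, Top2a and the G2 and M phase genes. For the microglia genes HD replicates 2 (10962) and 5 (9247) are both above the other libraries, and HD replicate 5 is among the other libraries for the G2 and M phase genes (802).

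Over the 30 libraries, with each value taken as its deviation from the group mean, Mki67 and Top2a had a Pearson r of 0.65 (permutation p = 0.0558, adjusted p = 0.377 over 36 pairs) and a Spearman rho of 0.26 (p = 0.254). Without the 2 libraries farthest from the median of Mki67, r was -0.11, so the relation rested on those libraries. The 5 genes with a pattern most like that of Mki67, out of those averaging 50 or more normalized counts, were Msn, Irgm1, Ifitm3, Olfml3 and S1pr3, with r between 0.84 and 0.85. These values were between 0.43 and 0.62 when HD replicate 2 was left out.

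The stretches before the start sites of Mki67 and Top2a are shown because these genes were high together in that 1 mouse. CCAAT boxes and the cell cycle homology region TTTGAA are known elements of promoters of mitotic genes. Each line gives the 250 bases before the annotated start, 5′ to 3′ on the strand of the gene, from RefSeq (GRCm38.p6), and the same bases stand in NCBIM37 at chr7:142908063-142908312 for Mki67 and chr11:98885504-98885753 for Top2a. Capitals mark CCAAT and TTTGAA, read on both strands (as ATTGG and TTCAAA on the other), which do not overlap with each other.
Mki67: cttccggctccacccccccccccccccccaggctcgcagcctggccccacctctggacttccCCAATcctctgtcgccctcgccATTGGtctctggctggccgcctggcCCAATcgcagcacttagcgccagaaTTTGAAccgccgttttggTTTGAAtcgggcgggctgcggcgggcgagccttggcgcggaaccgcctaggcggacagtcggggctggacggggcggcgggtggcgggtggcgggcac
Top2a: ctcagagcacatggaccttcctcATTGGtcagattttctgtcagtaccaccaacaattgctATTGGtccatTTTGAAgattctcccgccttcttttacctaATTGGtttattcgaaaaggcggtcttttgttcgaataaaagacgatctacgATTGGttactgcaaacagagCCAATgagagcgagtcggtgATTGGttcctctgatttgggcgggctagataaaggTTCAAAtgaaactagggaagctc
The Mki67 stretch held 3 matches to CCAAT and 2 to TTTGAA, and the Top2a stretch 6 and 2. Of 32851 stretches of this length in the table, 33.8% held CCAAT, 10.1% held it at least 2 times, 16.0% held TTTGAA and 5.55% held both. A match is a description of the letters. Of the 9 genes, 7 had an entry in the table.

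Eomes, the transcription factor of intermediate progenitors (ENSMUSG00000032446, NCBIM37 chr9:118387330-118395250, plus strand), had the lowest read numbers of the 9 genes. Its normalized counts in Ctr mice were 1.21, 1.70, 7.56, 1.13 and 8.95, of which 3 libraries rested on 1 read each. In LD mice they were 8.37, 19.3, 32.6, 24.7 and 3.73. Of the LD mice, 3 lay above every Ctr mouse and the other 2 within the Ctr range. In HD mice the values were 10.8, 6.53, 4.36, 22.5 and 3.33, with 2 above every Ctr mouse and none below.

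The values of Eomes with selenium were 22.8, 4.32, 1.17, 5.38 and 4.96 in Se_Ctr mice, 28.9, 12.5, 13.2, 11.8 and 4.63 in Se_LD mice and 2.29, 33.6, 17.9, 17.1 and 4.49 in Se_HD mice. The Se_Ctr group was low in 4 mice and high in replicate 1, and each of the other selenium groups held both low and high mice. All 6 groups overlapped.

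The comparison of LD with Ctr mice had 2 of the 9 genes past the unadjusted threshold, Eomes and Calb2, both higher in LD, where 3.01% of 20031 genes passed in either direction. For 0 of the 9 genes were the groups without overlap, where 0.399% of all genes were, and 0 of all genes passed the adjusted threshold. Eomes was 1.90 higher on the log2 scale (SE 0.59, interval 0.68 to 3.12, limma p = 0.00397, exact two-sided permutation p = 0.0397, adjusted p = 0.999). Leaving out each library of the fit in turn kept the difference between 1.61 and 2.32 with p under 0.05 in all 15 fits. Choroid plexus, which lies beside the hippocampus, varied widely between libraries. The summed level of 12 choroid plexus genes was 2379, 21386, 17067, 4801 and 43835 in Ctr mice and 40316, 22687, 45882, 1902 and 16292 in LD mice, and of these genes 0 passed the unadjusted threshold in LD against Ctr mice, with a median log2 difference of 0.60. Over the 30 libraries the deviations of Eomes and of this sum, both in log2, had a Spearman rho of 0.48 (permutation p = 0.00939, adjusted p = 0.264 over 144 relations) and a Pearson r of 0.38 (permutation p = 0.0385, adjusted p = 0.373), or 0.46 without the 2 libraries with the most extreme sums. The part of choroid plexus in the Eomes values was not tested. In HD against Ctr mice Eomes differed by 1.10 (interval -0.12 to 2.32, exact permutation p = 0.127), and by 1.35 without HD replicate 5 (adjusted p = 0.558), where it passed the unadjusted threshold. In the selenium groups it differed by 1.06 between Se_LD and Se_Ctr (interval -0.21 to 2.34, exact permutation p = 0.127) and by 0.87 between Se_HD and Se_Ctr (interval -0.40 to 2.15, exact permutation p = 0.333). Of the choroid plexus genes, 2 of 12 passed the unadjusted threshold upward in HD against Ctr mice, where 8.34% of all genes passed, with a median of 1.43. Without HD replicate 5, which held the lowest sum of the HD mice (9972 against 26434 to 45037), 7 of 12 passed, beside 8.41% of all genes, with a median of 1.90. In Se_LD against Se_Ctr mice 0 of 12 passed. Their median log2 difference was -0.81 there, while the sum had a higher median in Se_LD (36200) than in Se_Ctr mice (21545), with 3 Se_LD mice above and 2 below every Se_Ctr mouse. In Se_HD against Se_Ctr mice 0 of 12 passed, with a median of 0.73 and sums of 14395 to 53732 against 10842 to 30822. In these comparisons within the selenium diet 3.31% and 4.19% of all genes passed the unadjusted threshold and 0 of the 9 genes did, and 0.503% and 0.798% of all genes, but 0 of the 9, had groups without overlap. These comparisons share the control libraries of their diet. The list of 10 other genes of intermediate progenitors had 0 genes past the unadjusted threshold in each of these 4 comparisons, with medians of 0.24 for LD and 0.26 for HD against Ctr and -0.03 for Se_LD and -0.08 for Se_HD against Se_Ctr.

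Igfbpl1, a secreted protein of the insulin-like growth factor binding family found in neuroblasts (ENSMUSG00000035551, NCBIM37 chr4:45822340-45839795, minus strand), varied up to 11.6-fold between libraries. Its values were 4.83, 10.2, 19.8, 6.76 and 21.7 in Ctr mice, 4.18, 12.9, 24.4, 39.5 and 13.7 in LD mice, and 5.38, 31.8, 8.72, 46.6 and 16.7 in HD mice. Each of these groups spanned the low and the middle of the range, and the 2 exposed groups reached higher. In Se_Ctr mice they were 27.5, 17.3, 17.6, 15.2 and 20.7, in Se_LD mice 48.7, 23.4, 17.1, 8.13 and 7.41, and in Se_HD mice 10.7, 32.7, 21.7, 11.4 and 16.8. The Se_Ctr values were the closest together. The log2 differences were 0.57 for HD (interval -0.61 to 1.74) and 0.44 for LD (interval -0.74 to 1.61) against Ctr mice, and -0.16 and -0.20 for Se_HD and Se_LD against Se_Ctr, all with p above the threshold. Between the groups without mercury, Se_Ctr against Ctr, the difference was larger, at 0.77 (interval -0.30 to 1.83, exact permutation p = 0.119). The difference between HD and Ctr was 0.34 without HD replicate 2 and 0.27 without HD replicates 2 and 5.

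Among the 36 pairs of the 9 genes, Igfbpl1 and Eomes were the pair whose deviations from the group means passed the adjusted threshold. Their Pearson r was 0.61 over 30 libraries (permutation p = 0.000700, adjusted p = 0.0252) and Spearman rho 0.63 (p = 0.000720, adjusted p = 0.0259). Without the 2 libraries farthest from the median of Igfbpl1, r was 0.60. It was 0.61 in the 15 libraries without selenium and 0.65 in the 15 with selenium, where no pair passed the adjusted threshold within either diet alone. LD replicates 3 and 4, HD replicate 4, Se_LD replicate 1 and Se_HD replicate 2 were high for both genes, and Ctr replicates 1, 2 and 4 were low for both. Dcx did not share this pattern, and its r was -0.27 with Igfbpl1 and -0.49 with Eomes, with adjusted p of 0.468 and 0.206. Between Neurod1 and Top2a, r was -0.67 (adjusted p = 0.0603), and without HD replicate 2 it was -0.48.

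**Figure D3:**
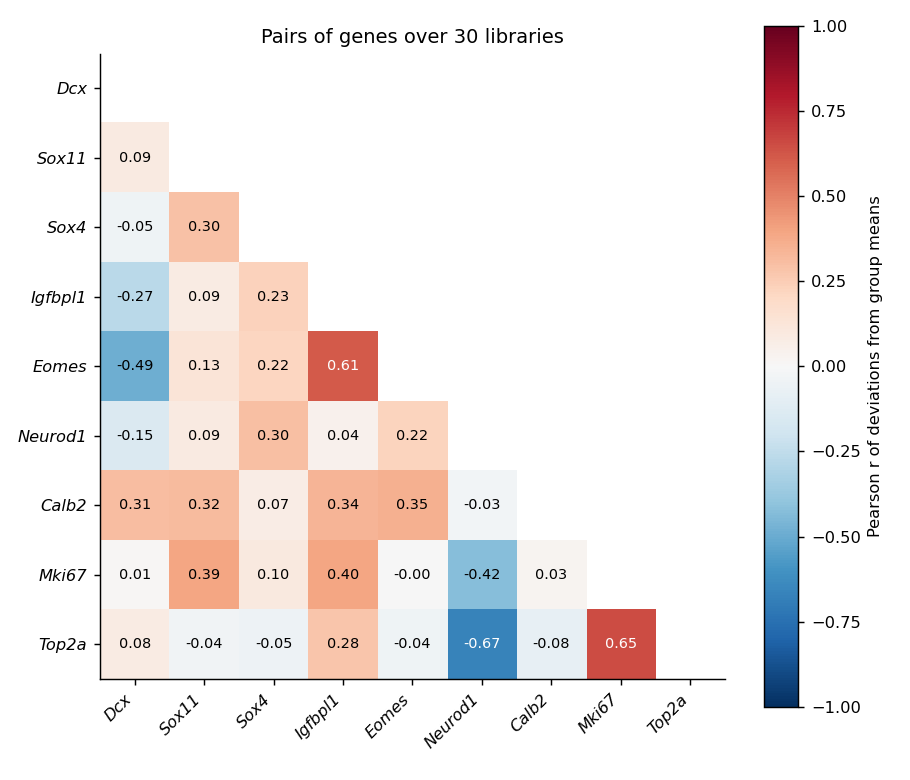
Pearson r between the 36 pairs of the 9 genes over 30 libraries, computed on deviations of log2(normalized count + 1) from the group means. The highest values are 0.65 for Mki67 with Top2a and 0.61 for Igfbpl1 with Eomes, and the lowest is -0.67 for Neurod1 with Top2a.

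Dcx, the microtubule-associated protein of migrating young neurons (ENSMUSG00000031285, NCBIM37 chrX:140290385-140367854, minus strand), was steady. Its values were 258, 298, 201.3, 263 and 208 in Ctr mice, 279, 263, 184, 219 and 276 in LD mice, and 195, 194, 202, 239.5 and 263 in HD mice. HD mice held 2 values below every Ctr mouse and 3 within the Ctr range. In Se_Ctr mice they were 203, 309, 261, 173 and 276, in Se_LD mice 218, 189, 249, 234 and 238, and in Se_HD mice 245, 249.7, 161, 222 and 242. All 6 groups overlapped, and the group means lay between 219 ± 31.0 in HD and 246 ± 40.4 in Ctr mice (SD, n = 5).

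The log2 difference of Dcx was -0.16 for HD against Ctr (interval -0.45 to 0.13, exact permutation p = 0.238) and -0.01 for LD against Ctr (interval -0.30 to 0.28, exact permutation p = 0.952). It was -0.11 for Se_HD against Se_Ctr (interval -0.41 to 0.18) and -0.09 for Se_LD against Se_Ctr (interval -0.38 to 0.21). Over both diets, the high dose difference was -0.14 (interval -0.35 to 0.08, permutation p = 0.251). Group membership held 7.77% of the variation of Dcx, where the median over all genes was 15.8%. The 5 genes with deviations most like those of Dcx, out of those averaging 50 or more normalized counts, were Zfp275, Pcdh11x, Hdgfrp3, 9430031J16Rik and Pgap1, with r between 0.69 and 0.71 over 30 libraries.

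Of 28 other genes of immature neurons, 5 passed the unadjusted threshold in HD against Ctr mice, 2 upward and 3 downward, which is 17.9% of the list beside 8.34% of all genes, with a median log2 difference of 0.03. Upward were Cd24a, a surface protein of neuroblasts that other cells also carry (137 ± 43.0 against 81.6 ± 10.6 normalized counts, adjusted p = 0.196), and Tubb2b, a tubulin of growing neurons (3636 ± 1543 against 2345 ± 284, adjusted p = 0.486). Of the 3 downward genes, Elavl4, an RNA-binding protein of neurons, is named (787 ± 137 against 991 ± 127, adjusted p = 0.502). The genes named are the 3 of the 5 with the lowest p. Leaving out HD replicate 2 gave 1 upward and 0 downward (3.57% of the list, beside 6.37% of all genes). Leaving out HD replicate 5 gave 3 and 3 (21.4%, beside 8.41%), and leaving out both gave 3 and 0 (10.7%, beside 6.20%). In LD mice 2 of the 28 passed, beside 3.01% of all genes, Neurod2 upward and Fxyd6 downward, and in the selenium groups 0 passed for either dose.

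Upstream of these cells, 4 of 19 genes of neural stem cells (21.1%) passed the unadjusted threshold upward in HD against Ctr mice and 0 downward, where 8.34% of all genes passed, with a median of 0.20. They included Sox2, a factor of stem cells that astrocytes also express (682 ± 83.1 against 533 ± 59.2 normalized counts, adjusted p = 0.28), Hes1, a target of Notch signalling (96.7 ± 17.1 against 72.8 ± 21.3, adjusted p = 0.537), and Thbs4, a secreted matrix protein (75.9 ± 43.7 against 34.6 ± 8.77, adjusted p = 0.160). Of the 19, 3 passed upward without HD replicate 2 (15.8%, beside 6.37% of all genes). Without replicates 2 and 5 there were 2 upward and 1 downward (15.8%, beside 6.20% of all genes). The summed level of this list was 14590 in HD replicate 2, 10307 to 11826 in the other HD mice and 9185 to 10355 in Ctr mice, next to the microglia levels given above, and the part of glial cells in it was not tested. In LD against Ctr mice 0 of the 19 passed, where 3.01% of all genes did.

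Sox11, a factor of newborn neurons (ENSMUSG00000063632, NCBIM37 chr12:28025562-28027574, minus strand), separated HD from Se_HD mice. Its values were 48.4, 48.2, 22.7, 42.6 and 25.8 in HD mice and 22.1, 16.3, 18.9, 21.6 and 7.86 in Se_HD mice. Every HD mouse lay above every Se_HD mouse, although the lowest HD value and the highest Se_HD value differed by less than 1 normalized count. In Ctr mice the values were 22.9, 20.4, 27.4, 31.6 and 12.8, and in LD mice 14.6, 50.2, 32.6, 15.8 and 28.6. In Se_Ctr mice they were 17.1, 15.6, 19.9, 11.6 and 23.2, and in Se_LD mice 35.2, 8.36, 25.0, 14.0 and 20.4. Above every Ctr mouse lay 3 HD, 2 LD and 1 Se_LD mouse, and every group overlapped with Ctr.

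In the comparison of Se_HD with HD mice 2 of the 9 genes passed the unadjusted threshold, Sox11 and Mki67, both lower in Se_HD, where 8.38% of 21383 genes passed, and 1 of the 9 had groups that did not overlap, where 1.5% of all genes did. The adjusted threshold was passed by 0.327% of all genes and by 0 of the 9. The log2 difference of Sox11 was -1.08 (SE 0.35, interval -1.79 to -0.37, adjusted p = 0.271 in limma). The exact two-sided permutation p was 0.00794, the smallest that 5 against 5 mice allow. Over all fits that left out 1 library the difference was between -1.24 and -0.84 with p under 0.05 in each. Mki67 differed by -0.95 (SE 0.35, p = 0.0109, exact permutation p = 0.111, adjusted p = 0.390 in limma), by -0.43 without HD replicate 2, where it no longer passed, and by -0.19 without HD replicates 2 and 5. On the recovered reads Mki67 differed by -1.48 with edgeR (adjusted p = 0.0547) and by -1.49 with DESeq2 (adjusted p = 0.0226), past the adjusted threshold with DESeq2 only. Top2a differed by -0.62 in limma (interval -1.67 to 0.43), by 0.09 without HD replicate 2, and by 0.60, in the other direction, without HD replicates 2 and 5. On the recovered reads it differed by -1.69 with both edgeR (adjusted p = 0.159) and DESeq2 (adjusted p = 0.176), past the unadjusted threshold, so that 3 of the 9 genes passed in each tool, beside 9.43% and 8.29% of all genes. The HD libraries are the same as in the comparisons with Ctr and LD mice. Of the microglia list, 14 of 15 genes were lower in Se_HD than in HD mice at the unadjusted threshold, which 8.38% of all genes passed. Their summed levels were 3495 to 4116 in Se_HD against 4323 to 10962 in HD mice for the whole list, and the part of this in the Sox11 and Mki67 differences was not tested. Sox11 differed by -0.97 without HD replicate 2 and by -1.09 without HD replicates 2 and 5, past the unadjusted threshold both times.

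Taken over the 3 mercury levels together, Sox11 was the 1 gene of the 9 that differed with selenium at the unadjusted threshold in limma, which 6.62% of all genes passed, with a log2 difference of -0.63 (SE 0.20, p = 0.00363, permutation p = 0.00652, adjusted p = 0.675). By level the difference was -0.35 for Se_Ctr against Ctr (exact permutation p = 0.214), -0.45 for Se_LD against LD (exact permutation p = 0.357) and -1.08 for Se_HD against HD. With edgeR, Mki67 passed over the 3 levels beside Sox11, at -0.56 (adjusted p = 0.617), where 7.63% of all genes passed. A direct test of whether the high dose acted differently with selenium gave -0.73 for Sox11 (interval -1.72 to 0.27, adjusted p = 0.997). In that test 0 of the 9 genes passed the unadjusted threshold in limma, where 4.77% of all genes did. Top2a passed it with edgeR (-1.76, adjusted p = 0.920) and with DESeq2 (-1.76, adjusted p = 0.999), beside 5.24% and 4.33% of all genes. Sox11 in HD against Ctr mice differed by 0.67 (interval -0.02 to 1.37, exact permutation p = 0.0794), by 0.79 without HD replicate 5, where it passed the unadjusted threshold, and by 0.57 without HD replicate 2. Se_HD against Se_Ctr mice it differed by -0.05 (interval -0.74 to 0.64). The comparisons of Se_Ctr with Ctr and of Se_LD with LD had 0 of the 9 genes past the threshold, where 4.0% and 2.86% of all genes passed, and 0 with groups without overlap, where 0.73% and 0.355% of all genes were.

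Sox4, the relative of Sox11 with a like role in young neurons (ENSMUSG00000076431, NCBIM37 chr13:29040788-29045582, minus strand), did not share this difference. Its annotated span overlaps with a second entry of the same name and strand, so reads may be split between the entries. Group means lay between 53.9 ± 9.53 normalized counts in Se_HD and 66.0 ± 10.7 in Se_LD mice (SD, n = 5), and single libraries between 42.1 in a Se_HD and 100.4 in an LD mouse. The difference was -0.09 for HD against Ctr (interval -0.51 to 0.34), -0.02 for LD against Ctr (interval -0.44 to 0.41) and -0.18 for Se_HD against HD (interval -0.54 to 0.17). Over 30 libraries Sox4 and Sox11 had an r of 0.30 (permutation p = 0.182, adjusted p = 0.502).

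Neurod1, the granule neuron factor (ENSMUSG00000034701, NCBIM37 chr2:79292678-79296908, minus strand), overlaps in the annotation with Cerkl on the same strand. It was at 187, 284, 231, 254 and 289 in Ctr mice, 215, 315, 364, 244 and 278 in LD mice, and 373, 190.2, 331, 361 and 251 in HD mice. Of the HD values, 3 lay above every Ctr mouse, and HD replicate 2, which was highest for Mki67 and Top2a, held the lowest of its group. The selenium groups were closer together, with ranges of 227 to 289 in Se_Ctr, 197 to 292 in Se_LD and 248 to 309 in Se_HD mice. Neurod1 differed by 0.25 between HD and Ctr (interval -0.13 to 0.62, exact permutation p = 0.278), by 0.18 between LD and Ctr (interval -0.19 to 0.55) and by 0.04 between Se_HD and Se_Ctr (interval -0.17 to 0.25). Leaving out HD replicate 2 made the difference between HD and Ctr 0.40 (adjusted p = 0.667), past the unadjusted threshold, and without HD replicates 2 and 5 it was 0.52 (adjusted p = 0.626). In the latter setting Neurod1 was also 0.35 higher in HD than in LD mice and lower in Se_HD than in HD mice, at -0.38, again past the unadjusted threshold only.

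**Figure D4:**
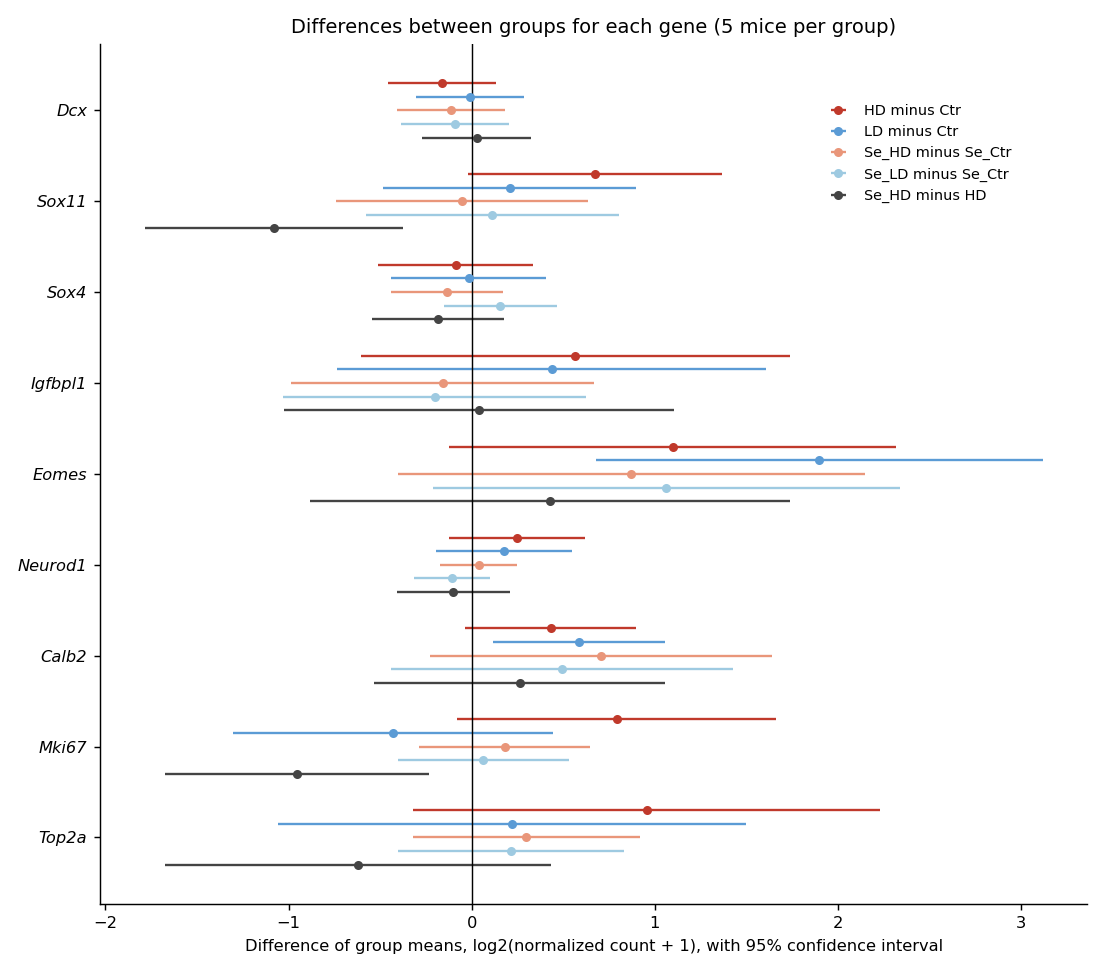
Differences between group means on the log2(normalized count + 1) scale with 95% confidence intervals from limma, for HD and LD minus Ctr, Se_HD and Se_LD minus Se_Ctr, and Se_HD minus HD (5 mice per group). Among these 5, the intervals that leave out 0 are those of Eomes (1.90) and Calb2 (0.59) for LD minus Ctr, and of Sox11 (-1.08) and Mki67 (-0.95) for Se_HD minus HD, and none of these has an adjusted p under 0.05 in limma. HD minus LD, where the interval of Mki67 (0.35 to 2.09) leaves out 0, is not plotted.

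Calb2, a calcium-binding protein (ENSMUSG00000003657, NCBIM37 chr8:112661402-112692110, minus strand), was the other gene higher in LD mice. Its values were 144, 162, 143, 125 and 155 in Ctr mice, 108, 249.8, 217, 304 and 278 in LD mice, and 209.8, 131, 162, 251 and 257 in HD mice. The Ctr mice lay within a 1.29-fold range, 4 LD mice lay above all of them and 1 below. In Se_Ctr mice the values were 290, 183, 156, 36.7 and 198, in Se_LD mice 376, 95.4, 246, 420.4 and 90.7, and in Se_HD mice 192, 358, 214, 240.2 and 203. The selenium groups overlapped. Highest over lowest, the Se_Ctr values spanned a 7.88-fold and the Se_LD values a 4.63-fold range, the Se_HD values a 1.86-fold range, close to the 1.95-fold of HD mice, and the lowest of the 30 libraries was Se_Ctr replicate 4.

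Calb2 was 0.59 higher in LD than in Ctr mice on the log2 scale (SE 0.22, interval 0.12 to 1.05, limma p = 0.0167, adjusted p = 0.999, exact permutation p = 0.0556). It no longer passed the unadjusted threshold without LD replicate 4 (0.47), without LD replicate 5 (0.50) or in a fit over all 30 libraries. In HD against Ctr mice it was 0.43 (interval -0.04 to 0.90, exact permutation p = 0.0794), with 4 of 5 HD mice above the highest Ctr value, and it was 0.57 without HD replicate 2 (adjusted p = 0.631), past the unadjusted threshold. Without HD replicate 5 it was 0.33 and without HD replicates 2 and 5 it was 0.49, neither past the threshold. Taking both diets together for the high dose, 2 of the 9 genes passed the unadjusted threshold, which 9.09% of all genes passed, and 0 the adjusted one, which 0.21% passed. These were Eomes at 0.98 (SE 0.46, p = 0.0382, permutation p = 0.0747) and Calb2 at 0.57 (SE 0.28, p = 0.0471, permutation p = 0.0215), with adjusted p of 0.517 and 0.540. Neither passed with a pseudocount of 10, and not both passed with the library set as a covariate. With edgeR and with DESeq2 3 of the 9 passed, Top2a, Mki67 and Eomes, beside 9.81% and 8.6% of all genes, and Calb2 did not. In limma the differences of Mki67 and Top2a over both diets were 0.49 and 0.63, not past the threshold, 0.23 and 0.27 without HD replicate 2, and 0.11 and 0.02 without HD replicates 2 and 5. Neurod1 went from 0.14 to 0.22 without HD replicate 2 (adjusted p = 0.571) and to 0.28 without both (adjusted p = 0.425), past the unadjusted threshold in both settings. Calb2 was at 0.33 and no longer passed without Se_Ctr replicate 4, the library with the lowest value, and of the 30 fits that left out 1 library, 15 for Calb2 and 19 for Eomes kept p under 0.05. Calb2 also did not pass without HD replicate 5 (0.52) or without HD replicates 2 and 5 (0.60).

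Calb2 is also strongly expressed in thalamus and habenula, which border the hippocampus. Of 12 marker genes of these regions, 2 passed the unadjusted threshold upward in LD against Ctr mice, Prkcd and Gpr151, and 5 in Se_LD against Se_Ctr mice, beside 3.01% and 3.31% of all genes. Their summed level was 1693 to 2301 in Ctr, 1682 to 5313 in LD, 1454 to 2764 in HD, 1578 to 2880.2 in Se_Ctr, 1662 to 5329 in Se_LD and 1691 to 2943 in Se_HD mice. LD replicate 5 and Se_LD replicates 1 and 4 were the 3 highest libraries, at 5313, 5329 and 5207, and Calb2 was at 278, 376 and 420.4 in them. Over the 30 libraries the deviations of Calb2 and of this sum, both in log2, from the group means had a Pearson r of 0.65 (permutation p = 0.00390) and a Spearman rho of 0.63 (p = 0.00257). Adjusted over the 144 relations of the 9 genes with 16 lists the values were 0.206 and 0.264, and r was 0.65 without the 2 libraries with the most extreme sums. The part of neighbouring tissue in the Calb2 values was not tested. The 10 other genes of mossy cells and Calb2 interneurons had 0 genes past the threshold in LD against Ctr mice and 2 upward in HD against Ctr mice, Csf2rb2 and Penk, beside 8.34% of all genes. Their summed level was 3110 in HD replicate 2, against 1942 to 2443 in the other HD mice and 1787 to 2337 in Ctr mice, and 0 of the 10 passed without that library, beside 6.37% of all genes.

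**Figure D5:**
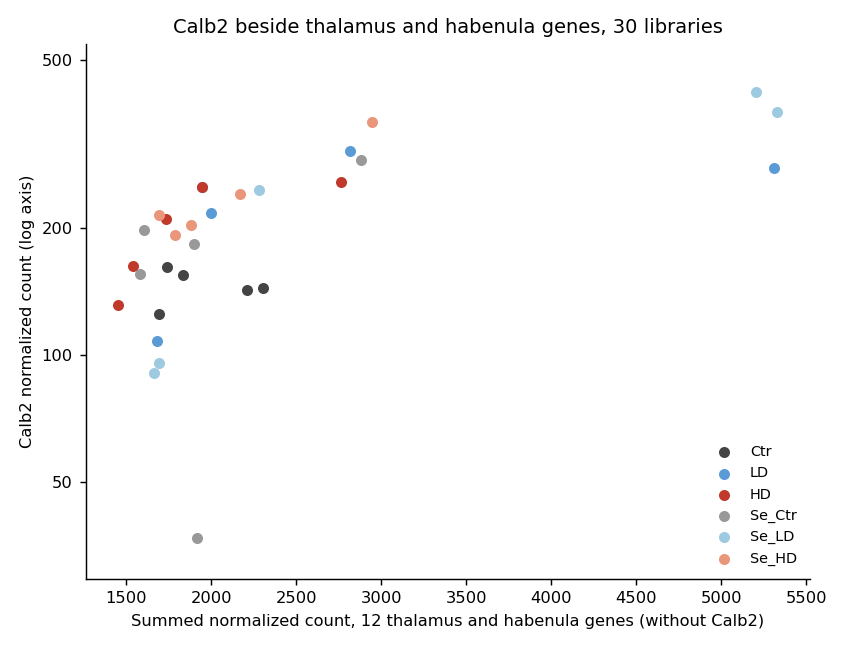
Normalized count of Calb2 (log axis) against the summed normalized count of 12 thalamus and habenula genes, with 1 point per library coloured by group. The 3 libraries with sums between 5207 and 5329 are 1 LD and 2 Se_LD mice, all with Calb2 of 278 or more, and the lowest Calb2 value, 36.7, is a Se_Ctr mouse with an ordinary sum.

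Genes with deviations most like those of Calb2, under the same limit on the mean, were Zcchc12, Dlk1, Zic1, Grik1 and Bex1, with r between 0.70 and 0.76 over 30 libraries. Across all 6 groups at once, 2 of the 9 genes passed the unadjusted F test, where 6.91% of all genes did, and 0 the adjusted one, which 0.444% passed. These were Mki67 (adjusted p = 0.513) and Sox11 (adjusted p = 0.651), and Eomes missed the unadjusted threshold narrowly (adjusted p = 0.725). The count tests gave Mki67 an adjusted p of 0.0102 with edgeR and 0.000277 with DESeq2 in this comparison, and Top2a one of 0.0760 with edgeR and 0.0458 with DESeq2. Each tool had 3 of the 9 genes past the unadjusted threshold, Mki67, Top2a and Sox11, beside 8.28% and 7.94% of all genes. Without HD replicate 2, 0 of the 9 genes passed the F test in limma. The share of variation that lay between groups was 37.1% for Mki67, 34.4% for Sox11 and 29.6% for Eomes, and between 7.77% and 15.5% for the other 6 genes, beside the median of 15.8% over all genes.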

How the data were processed

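Hippocampus RNA of 30 mice was sequenced by the authors as stranded single-end reads of 75 bases, trimmed with TrimGalore 0.4.2, mapped with Hisat2 2.0.4 to NCBIM37 and counted per gene with featureCounts. The deposited signal values are the authors' read counts divided by 1 size factor per library (DESeq2 1.18.1), after removal of genes with under 10 reads in all. Every value gave a whole read number within 0.01, and the factors equalled recomputed ones. Depth was 5768208 to 11510521 reads, which limits Eomes, Igfbpl1, Top2a, Sox11 and Mki67 by counting error. Groups came from the labels, replicate numbers name mice in accession order, and each library is 1 mouse. Per the annotation (GENCODE, same build), 21326 of 21412 identifiers had a symbol.

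Log2(normalized count + 1) was fitted with limma 3.58.1 (R 4.3.3) with trend, 1 coefficient per group, over the 15 libraries of a diet (20031 or 19679 genes with a sum of at least 10) or all 30 (21383 genes) for comparisons across diets. P-values were adjusted by Benjamini-Hochberg across every gene in the fit. Single genes also had exact or 100000-resample permutation tests, all two-sided, and pairs and lists were related by within-group permutation. The genes named are the 9, the genes of 16 marker lists past an adjusted p of 0.05 or the 3 with the lowest p, and the 5 most alike by r. The 9 genes and the lists were chosen with earlier results of these data known, and Prc1, Bub1b and Cdk1 after their values were seen. Alternatives were pseudocounts of 0.1 and 10, no filter or a mean of at least 10, TMM factors, the recovered reads in edgeR 4.0.16 and in DESeq2 1.42.0, a covariate for sets of 6 consecutive libraries, 1 fit over all 30 libraries, and leaving out libraries. In simulated HD and Ctr data with 200 of 19747 genes changed by a log2 fold change of 1, limma recovered 180 with 8 false calls. The changed genes had a mean of at least 10 and were drawn with a preset spread and no outlying library. The simulation therefore gives no recovery rate for the 9 genes.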

Additional observations from a re-analysis of the deposited data

Results flagged for a closer look

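In 5 of the 60 sets of 5 libraries examined (the 9 genes and the reads on genes, in each of 6 groups), 1 library lay far from the other 4, by a gap over the whole range of the set above 0.71, where chance gives about 3. For Mki67 in HD replicate 2 this ratio was 0.817 and for Top2a in the same library 0.782. For Eomes in Se_Ctr replicate 1, at 22.8 normalized counts beside 1.17 to 5.38 in the other 4 mice, it was 0.806. For Sox4 in LD replicate 2, at 100.4 beside 53.3 to 65.9, it was 0.733. The reads on genes in HD replicate 1 had a ratio of 0.821, with 7133831 reads, the lowest of the HD group.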

How the results depend on the processing

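Of the 9 genes, the number past the unadjusted threshold in HD against Ctr mice was 0, and it was 3 with edgeR, 4 with DESeq2, 1 with the library set as a covariate, 1 in the fit over all 30 libraries and 2 without HD replicates 2 and 5, a setting added after seeing the data. Without these 2 libraries Top2a reversed, to -0.27. In LD against Ctr mice the count was 2, and 1 in the fit over all 30 libraries. In HD against LD mice it was 1, and 2 with edgeR and 2 with DESeq2. The test of the high dose between diets went from 0 to 1 with edgeR and 1 with DESeq2, Top2a in both, beside 5.24% and 4.33% of all genes. For the high dose over both diets it was 2, and 0 with a pseudocount of 10, 1 with a mean of at least 10 and 1 with the library set, while edgeR and DESeq2 gave 3 each. Both tools also gave 3 in place of 2 for Se_HD against HD mice and for all groups. For selenium over all levels it was 1, and 2 with edgeR, with DESeq2 and with the library set, where edgeR and DESeq2 called 7.63% and 6.56% of all genes. Of the pairs, 1 passed over 30 libraries, and 0 in the 15 libraries of either diet, where fewer libraries entered. Leaving out 1 library moved the counts within 0 to 2 (HD against Ctr), 1 to 2 (LD against Ctr and HD against LD), 0 to 1 (Se_HD and Se_LD against Se_Ctr), 0 to 0 (Se_Ctr against Ctr, Se_LD against LD and the high dose between diets), 1 to 3 (Se_HD against HD), 0 to 4 (high dose over both diets), 1 to 2 (selenium) and 0 to 3 (all groups). The cause of these moves was not tested. No adjusted p under 0.05 arose for the 9 genes in any limma setting, and edgeR gave 1 and DESeq2 4 among 108 tests. The edgeR call was Mki67 over all groups, where 299 of 21383 genes passed. With DESeq2 they were Mki67 and Top2a over all groups (470 of 21356 genes) and Mki67 in HD against LD (174 of 19963) and Se_HD against HD mice (225 of 21355). These comparisons all hold HD replicate 2, and the count tests were not run without it. The labels carry no replicate numbers that join mice across groups. The library numbers fall into 5 sets of 6 with 1 library of each group in every set, and the fit with this set as a covariate is the blocked analysis given here. What a set stands for is not given in the sources used here. With under 10 normalized counts of Eomes in many mice, counting error limits what this depth can show for it.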
